A study of Homo sapiens with 4 samples.

Results

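The 47 genes described here encode the machinery that copies DNA in S phase. They were taken by symbol, from origin licensing through the replicative helicase, the DNA polymerases and clamp loading to fork protection. No cut on their values was used, but the list was chosen with earlier results of these data known. All 47 had a value, among 19775 genes with a value on the array, and they were read by 87 of the 41091 probe sets that the platform's annotation pairs with exactly 1 gene symbol. Expression was measured on 4 Affymetrix arrays, 1 for each combination of cell line and siRNA. The lines were NCI-H209 and Lu139, both human small cell lung cancer lines, and each was electroporated with control siRNAs (siNTC) or with siRNAs for TTF-1 (siTTF-1). TTF-1, the product of NKX2-1, is a homeodomain transcription factor active in thyroid and lung. No array has a replicate. The siRNA effect is repeated only across the 2 lines, and nothing in the labels describes separate cultures. The p-values rest on how far the siRNA difference disagrees between the lines, with variance shared over genes. That scatter may be partly technical, and a true difference in response between the lines is counted in it.

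DNA replication begins at origins, where the origin recognition complex (ORC) recruits CDC6 and CDT1, and these load the MCM2-7 ring as an inactive helicase. In S phase the kinase CDC7 with DBF4, MCM10, CDC45 and the GINS complex turn that ring into the active helicase. Polymerase alpha with primase starts each new strand, polymerases epsilon and delta extend the strands on the PCNA clamp that replication factor C (RFC) loads, and claspin, TIMELESS and TIPIN hold the fork together. Many of these genes are transcribed at the G1/S boundary under E2F factors, and small cell lung cancers, which usually lack functional RB1, divide rapidly.

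Because many members were lower together, promoters are shown for POLA1, CLSPN, MCM10 and ORC6, which are among the 5 members with the largest mean change; GINS4 is not printed. They come from RefSeq (GRCh38.p14). Each is printed 5′ to 3′ on the gene's own strand from 150 bases before the start of the gene to 20 bases after it. Capitals mark matches to an E2F word (TTTCCCGC, TTTCGCGC, TTTGCCGC or TTTGGCGC) or to CCAAT, the word bound by NF-Y, on either strand.
POLA1: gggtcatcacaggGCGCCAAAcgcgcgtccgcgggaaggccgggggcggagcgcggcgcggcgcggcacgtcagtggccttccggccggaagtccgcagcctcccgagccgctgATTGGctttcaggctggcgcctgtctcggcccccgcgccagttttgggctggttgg
CLSPN: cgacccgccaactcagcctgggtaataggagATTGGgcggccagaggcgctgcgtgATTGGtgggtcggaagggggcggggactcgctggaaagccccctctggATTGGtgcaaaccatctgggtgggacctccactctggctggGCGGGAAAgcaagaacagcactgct
MCM10: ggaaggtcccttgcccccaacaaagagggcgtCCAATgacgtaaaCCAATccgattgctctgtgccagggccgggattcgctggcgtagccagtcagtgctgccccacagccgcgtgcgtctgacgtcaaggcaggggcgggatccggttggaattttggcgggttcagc
ORC6: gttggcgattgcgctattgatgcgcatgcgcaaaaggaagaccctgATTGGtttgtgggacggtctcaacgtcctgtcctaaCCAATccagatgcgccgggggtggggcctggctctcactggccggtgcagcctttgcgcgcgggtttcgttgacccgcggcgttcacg
The printed stretches lie at chrX:24693768-24693937 (+ strand) for POLA1, chr1:35769959-35770128 (- strand) for CLSPN, chr10:13161408-13161577 (+ strand) for MCM10 and chr16:46689509-46689678 (+ strand) for ORC6. POLA1 and CLSPN each hold 1 E2F match, POLA1 holds 1 CCAAT match, CLSPN holds 3, and MCM10 and ORC6 hold 2 CCAAT matches each.

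Promoters of 41 of the 47 members were in the RefSeq table, as windows from 250 bases before the start of the gene to 50 bases after it. An E2F word was present in 18 of these 41 windows (43.9%), against 3.32% of all 35116 windows and 4.98% of the windows of 11625 genes tested on the arrays. CCAAT was present in 23 (56.1%), against 34.6% of all windows and 36.3% of those of the tested genes. TTTGAA, the core of the cell cycle element known as CHR, was present in 1 (2.44%, against 15.2% and 9.85%). CTCAAG, a core word of NKX2-1 sites, was present in 2 (4.88%, against 12.4% and 10.5%). The search used both strands, each word was searched on its own, and matches may share letters. The 18 members with an E2F word had median log2 differences of -0.17 in NCI-H209 and -0.06 in Lu139; without one, the medians of 23 members were -0.18 and -0.02. Of these, 13 of the 18 and 12 of the 23 were lower in both lines, where 27.5% of all genes were. The 23 members with CCAAT had medians of -0.21 and -0.08, with 16 lower in both lines, and the 18 without it had -0.15 and 0.00, with 9 lower in both. Neither difference was tested. A match is a description of the letters in the window and was not tested for binding.

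All differences below are siTTF-1 minus siNTC on the log2(intensity + 18.7) scale, where a gene is read by its brightest probe set, and pairs of intensities give siNTC first. The targeted gene, NKX2-1, was lower on both siTTF-1 arrays: its brighter probe set went from 596 to 243 in NCI-H209 (-1.23) and from 780 to 461 in Lu139 (-0.74). Its dimmer probe set went from 196 to 127 in NCI-H209 (-0.56) and from 400 to 221 in Lu139 (-0.80). Which line had the larger decrease thus depends on the probe set. The median probe set intensity ran from 48.4 to 57.7 over the 4 arrays, and precision is limited by having only 4 arrays. Of 7 markers of small cell lung cancer, 6 had a value, all 6 were above the expression limit in both lines, and their summed intensity lay between 19760 and 27010. The 3 of them with the largest mean change were NCAM1 (-0.35 in NCI-H209 and -0.16 in Lu139), CHGA (0.16 and 0.30) and DLL3 (-0.38 and 0.00). The summed intensities of markers of other cell types were higher on the siTTF-1 array of each line. For 3 fibroblast genes the sum was 358 and 398 in NCI-H209, then 393 and 449 in Lu139. For the 2 of 3 leukocyte genes with a value it was 87.3 and 99.2, then 74.2 and 90.5, and for 3 endothelial genes 209.5 and 228, then 169 and 215. Of these 8 genes, 5 were above the limit in both lines, and all 5 were higher in both, as were 37.7% of all genes. They were COL1A1 (0.19 and 0.11), DCN (0.05 and 0.54), CD3E (0.16 and 0.25), PECAM1 (0.07 and 0.38) and VWF (0.19 and 0.19). In Lu139, DCN passed the limit only by the mean of the pair, with 33.4 on the siNTC array and 57.0 on the siTTF-1 array. The other 3, COL1A2, PTPRC and CDH5, were under the limit of 37.0 on every array, and none of the 8 was listed at 0. Their part in the results below was not tested. The ratio of the 3′ to the 5′ control probe set ran from 0.912 to 0.937 for GAPDH and from 1.03 to 1.09 for ACTB.

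Most replication genes were somewhat lower after siTTF-1, more so in NCI-H209 than in Lu139. All 47 were above the expression limit in both lines. Of them, 36 were lower in NCI-H209, against 47.3% of all genes, and 33 were lower in Lu139, against 40.7% of all genes. In both lines at once 27 were lower, against 27.5% of all genes, and 5 were higher, against 37.7%; the other 15 had opposite signs, against 31.9%. The median log2 difference over the members was -0.17 in NCI-H209 and -0.04 in Lu139, beside 0.01 and 0.03 over all genes above the limit in both lines.

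**Figure D1:**
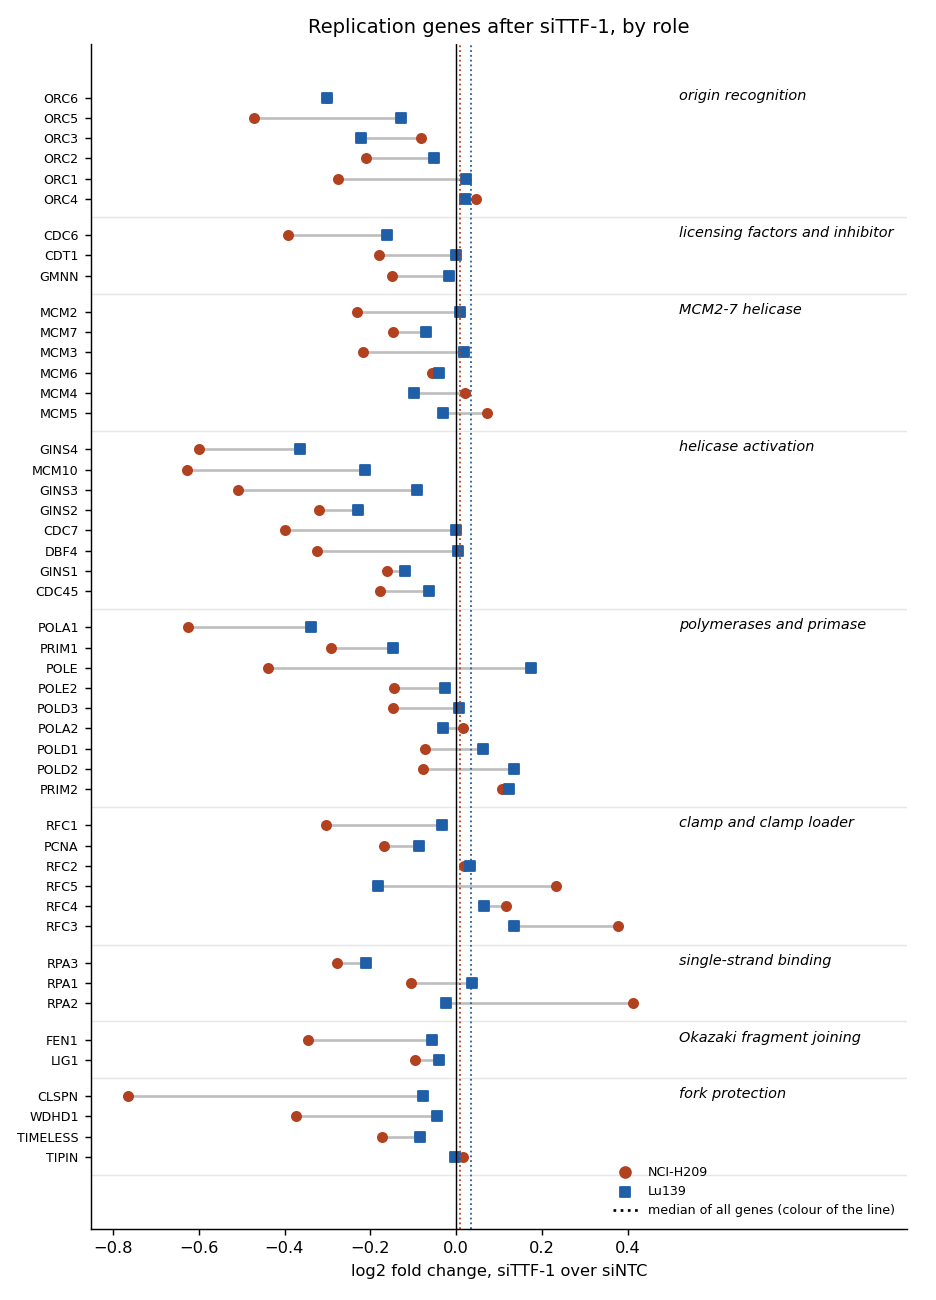
Log2 fold change of the 47 replication genes, siTTF-1 over siNTC, on the horizontal axis, with 1 row per gene grouped by role; circles are NCI-H209 and squares Lu139, each from 1 pair of arrays, and dotted lines are the medians of all genes. The circles reach -0.77 for CLSPN and 0.41 for RPA2, while the squares stay between -0.36 and 0.17.

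The changes were small. In NCI-H209, 4 members were past 1.5-fold lower (515 of 14632 genes, or 3.52%, were) and 0 were past 1.5-fold higher (1.09% of all genes). In Lu139, 0 members were past 1.5-fold in either direction, where 0.936% of all genes were that much lower and 0.193% that much higher.

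Across both lines, limma with the line as a block called 0 members at an adjusted p under 0.05, and 0 of 14547 genes (0.0%) in either direction. Without adjustment, 9 members were lower in limma at the 0.05 level (9.25% of all genes were) and 1 was higher (7.23% of all genes). The 9 were POLA1, GINS4, CLSPN, MCM10, ORC6, ORC5, CDC6, GINS2 and RPA3, and the higher one was RFC3. The lowest adjusted p of a member in limma was 0.143, that of GINS4. With 1 residual degree of freedom, the fit has little power for an effect of unequal size in NCI-H209 and Lu139.

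The origin recognition complex marks where replication can start. ORC6, its smallest subunit, had intensities of 2345 (siNTC) and 1900 (siTTF-1) in NCI-H209 and of 2010 and 1629 in Lu139. The siTTF-1 array was thus the lower of the pair in each line, at 81.0% and 81.1% of control. Its mean log2 difference was -0.30 (SD 0.00, n = 2 lines), the closest match between lines among members with a mean beyond 0.2 in size, with a limma adjusted p of 0.174. ORC5 had 465 and 330 in NCI-H209, against 483 and 440 in Lu139, log2 differences of -0.47 and -0.13. Its dimmer probe set above the limit gave -0.38 and -0.36, so both probe sets were lower in both lines but differed on the size in Lu139. ORC3 was the 1 member lower in both lines whose decrease was the larger in Lu139, with 1690 and 1595 in NCI-H209, against 811 and 693 in Lu139 (-0.08 and -0.22). ORC2 had -0.21 and -0.05. ORC1, the subunit whose level rises and falls with the cell cycle, had 216 and 175 in NCI-H209, against 327 and 333 in Lu139 (-0.28 and 0.02), and ORC4 had 0.05 and 0.02. Of the 6 ORC genes, 4 were lower (27.5% of all genes were) and 1 was higher (37.7%) in both lines.

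CDC6 and CDT1 load the helicase, and GMNN encodes geminin, which binds and inhibits CDT1. CDC6 had 1099 and 833 in NCI-H209, against 1207 and 1078 in Lu139, log2 differences of -0.39 and -0.16, and its second probe set gave -0.26 and -0.08. All 3 genes had negative values in both lines, but those of CDT1 in Lu139 (0.00) and of GMNN (-0.15 and -0.02) were small.

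The MCM2-7 genes encode the 6 subunits of the helicase ring, and they moved little. Their log2 differences lay between -0.23 and 0.07 in NCI-H209 and between -0.10 and 0.02 in Lu139. MCM2 had 3283 and 2795 in NCI-H209, against 4186 and 4212 in Lu139 (-0.23 and 0.01), and MCM3 had -0.22 and 0.02. MCM6 and MCM7 were the 2 of 6 subunits lower in both lines, where 27.5% of all genes were. Their values were -0.06 and -0.04 for MCM6 and -0.15 and -0.07 for MCM7. MCM5 had 0.07 and -0.03. The 5 probe sets of MCM4 did not go one way: in Lu139 they ran from -0.30 to 0.35.

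Most genes that turn the loaded ring into a moving helicase were lower. Of these 8 genes, 7 were lower in both lines by sign (27.5% of all genes were). But 1 of the 7, CDC7, was level in Lu139 (0.00, and 0.01 after quantile normalization over the 4 arrays). The remaining gene, DBF4, was level there too (-0.32 in NCI-H209 and 0.00 in Lu139). The median over the 8 was -0.36 for NCI-H209 and -0.11 for Lu139. The corresponding medians of the MCM2-7 genes were -0.10 and -0.04. The difference between these groups of genes was not tested.

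MCM10, which is needed for the helicase to start unwinding, had intensities of 1278 and 821 in NCI-H209, against 540 and 464 in Lu139. The siTTF-1 arrays were at 64.2% and 85.9% of their controls, and the mean log2 difference was -0.42 (SD 0.29, n = 2 lines; limma adjusted p = 0.2). All 3 of its probe sets were lower in both lines, from -0.80 to -0.53 in NCI-H209 and from -0.21 to -0.15 in Lu139. GINS4, a subunit of the 4-protein GINS complex, had 478 and 310 in NCI-H209, against 218 and 165 in Lu139. Its mean log2 difference was -0.48 (SD 0.17, n = 2 lines), with a limma 95% interval of -0.74 to -0.22. Its brightest probe set carried this value. The next probe set, with intensities from 61.6 to 82.2, gave -0.33 in NCI-H209 and 0.12 in Lu139. Averaged over its 4 probe sets, GINS4 had -0.27 and -0.13.

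The other GINS subunits were also lower. GINS3 had 420 and 290 in NCI-H209, against 366 and 343 in Lu139 (-0.51 and -0.09), and its second probe set gave -0.48 and -0.10. GINS2 had 3875 and 3103 in NCI-H209, against 3497 and 2979 in Lu139 (-0.32 and -0.23), at an unadjusted limma p of 0.00664 and an adjusted p of 0.168 over all genes. Of its 3 probe sets, the dimmest was higher in both lines (0.03 and 0.17). Averaged over the 3, GINS2 had -0.17 and -0.13 and was no longer among the members with an unadjusted limma p under 0.05. GINS1 had -0.16 and -0.12. All 4 GINS genes were thus lower in both lines, by unequal amounts. CDC45, which completes the active helicase, had -0.18 and -0.06. CDC7, the kinase that phosphorylates the MCM ring, had 1750 and 1323 in NCI-H209, against 1209 and 1208 in Lu139 (-0.40 and 0.00), so it was lower in NCI-H209 and level in Lu139, as was its activator DBF4.

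**Figure D2:**
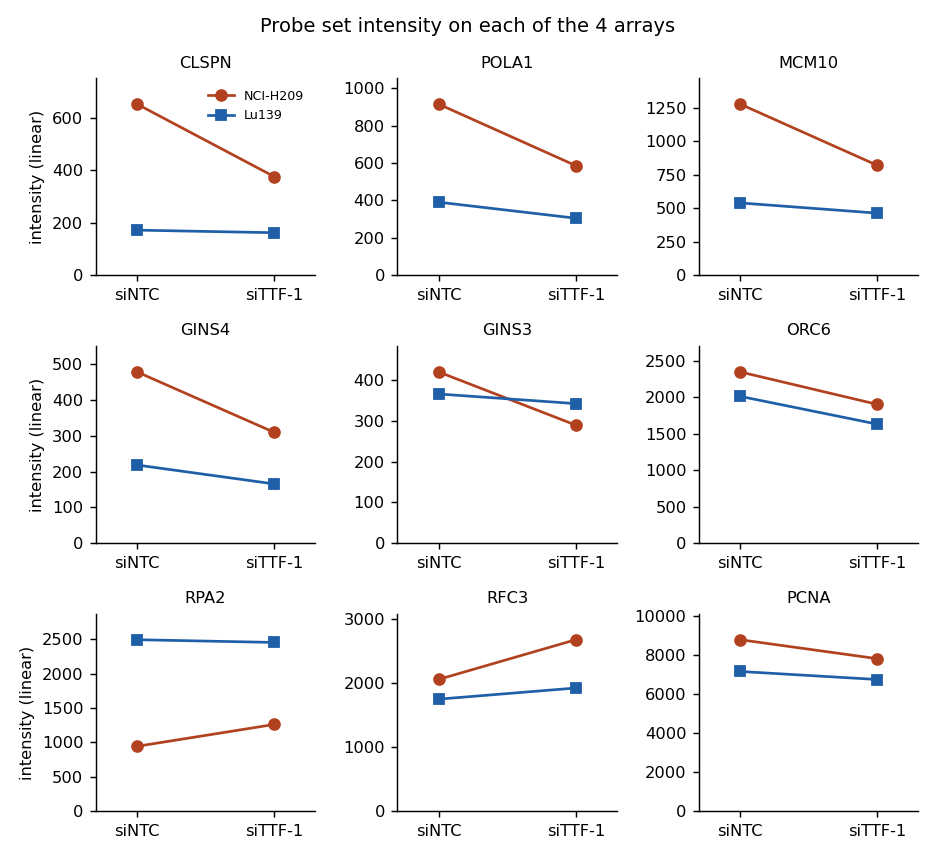
Probe set intensity (linear vertical axis from 0) of 9 replication genes on the siNTC and siTTF-1 arrays of NCI-H209 (circles) and Lu139 (squares), 1 array per point, with no error bars because no array has a replicate. ORC6 slopes down alike in both lines, CLSPN drops from 651 to 376 in NCI-H209 and from 172 to 162 in Lu139, and RPA2 climbs from 942 to 1261 in NCI-H209.

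Among the polymerases, the lowest values were those of POLA1, the catalytic subunit of polymerase alpha that begins DNA synthesis after the primer. POLA1 had 915 (siNTC) and 586 (siTTF-1) in NCI-H209 and 391 and 305 in Lu139. The siTTF-1 arrays were at 64.1% and 78.1% of control, and the mean log2 difference of -0.48 (SD 0.20, n = 2 lines; limma 95% interval -0.75 to -0.21; adjusted p = 0.147) was the largest in size of all 47 members. It was read by 1 probe set. POLA2, the accessory subunit of the same polymerase, had 1127 and 1141 in NCI-H209, against 788 and 771 in Lu139, log2 differences of 0.02 and -0.03. The primase subunits went opposite ways. PRIM1, which makes the RNA primer, had 1496 and 1220 in NCI-H209, against 1269 and 1143 in Lu139 (-0.29 and -0.15), while PRIM2 had 0.11 and 0.12.

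POLE, the catalytic subunit of the leading-strand polymerase epsilon, had 420 and 305 in NCI-H209 but 292 and 332 in Lu139. Its log2 differences of -0.44 and 0.17 had opposite signs, and whether the lines differed was not tested, since each line has 1 array per siRNA. POLE2 had -0.14 and -0.03. The subunits of the lagging-strand polymerase delta stayed near control, with -0.07 and 0.06 for POLD1, -0.08 and 0.14 for POLD2 and -0.15 and 0.01 for POLD3. Of these 9 polymerase and primase genes, 3 were lower (27.5% of all genes were) and 1 was higher (37.7%) in both lines. The count lower was thus near the share of all genes.

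PCNA, the sliding clamp, and RFC1 to RFC5, which load it, had mixed signs. Of these 6 genes, 2 were lower (27.5% of all genes were) and 3 higher (37.7%) in both lines. PCNA had 8765 and 7794 in NCI-H209, against 7139 and 6728 in Lu139 (-0.17 and -0.09). RFC1, the large subunit, had 916 and 739 in NCI-H209, against 642 and 627 in Lu139 (-0.30 and -0.03). RFC2 and RFC4 had values from 0.02 to 0.12 in either line. RFC3 had 2051 and 2670 in NCI-H209, against 1743 and 1917 in Lu139, a mean log2 difference of 0.26 (SD 0.17, n = 2 lines; limma adjusted p = 0.25). It was the 1 member higher at an unadjusted limma p under 0.05. The 3 probe sets of RFC3 disagreed: the second brightest gave 0.50 in NCI-H209 and -0.08 in Lu139, but the dimmest gave -0.53 and -0.16. As the mean of all probe sets RFC3 had 0.11 in NCI-H209 and -0.03 in Lu139. RFC5 had 0.23 and -0.18, but its second probe set gave 0.16 and 0.00 and its dimmest 0.08 and -0.04. The size of its decrease in Lu139 thus rests on the brightest probe set.

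RPA coats single-stranded DNA at the fork, and its 3 subunits had 3 patterns. RPA3, the smallest, had 5602 and 4617 in NCI-H209, against 2298 and 1984 in Lu139 (-0.28 and -0.21, limma adjusted p = 0.195). RPA2 had 942 and 1261 in NCI-H209, 134% of control and the highest log2 difference of the members there (0.41), and 2497 and 2457 in Lu139 (-0.02). RPA1 had -0.11 and 0.04. FEN1, which trims the flaps of Okazaki fragments, had 5128 and 4034 in NCI-H209, against 2386 and 2295 in Lu139 (-0.34 and -0.06), and LIG1, which seals them, had -0.10 and -0.04. Both joining genes were lower in both lines, FEN1 by more in NCI-H209 than LIG1.

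CLSPN, which encodes claspin, the fork protein that passes the ATR signal to CHK1, had the lowest value of the members in NCI-H209. Its intensity was 651 on the siNTC array and 376 on the siTTF-1 array of NCI-H209, 57.7% of control, and 172 and 162 in Lu139. The log2 differences were -0.77 and -0.08 (mean -0.42, SD 0.49, n = 2 lines; limma adjusted p = 0.28). All 4 of its probe sets were lower in both lines, from -0.77 to -0.24 in NCI-H209 and from -0.24 to -0.08 in Lu139. WDHD1, which ties the helicase to polymerase alpha, had 681 and 521 in NCI-H209, against 280 and 271 in Lu139 (-0.37 and -0.05), but its other probe sets gave -0.13 and -0.05 in NCI-H209 but 0.01 and 0.09 in Lu139. Averaged over all 3, WDHD1 had -0.18 and 0.02, so its sign in Lu139 depends on the probe set. TIMELESS had -0.17 and -0.09, and its partner TIPIN had 0.02 and 0.00.

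**Figure D3:**
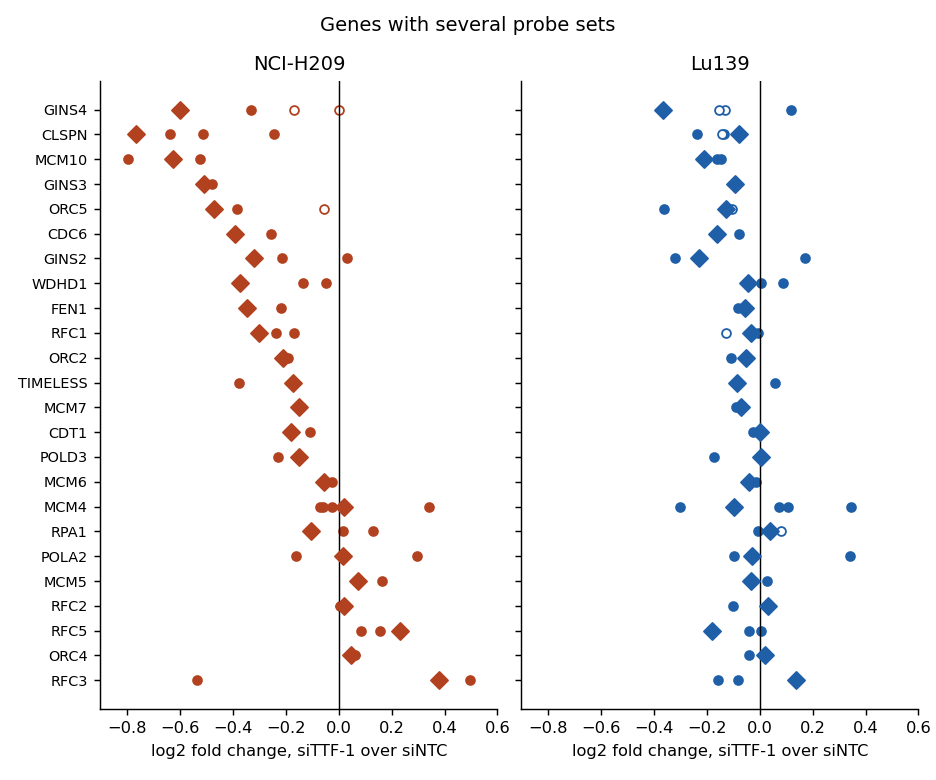
Log2 fold change of every probe set of the 24 genes with more than 1, in NCI-H209 (left) and Lu139 (right), with 1 gene per row in the order of the mean change; diamonds are the brightest probe set of a gene, and open symbols lie under the expression limit of the line. The probe sets of CLSPN and MCM10 all lie below 0, while those of MCM4, POLA2 and RFC3 lie on both sides.

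By probe set, 81 of the 87 were above the limit in both lines, and of these 43 were lower and 8 higher in both. By gene, 27.5% of all genes were lower and 37.7% higher in both, and the shares over all probe sets were not counted. The median log2 differences of the 81 were -0.16 in NCI-H209 and -0.04 in Lu139, close to those of the members by gene. Of the 34 that were not their gene's brightest, 27 had the sign of the brightest in NCI-H209 and 17 in Lu139. Probe sets of a gene thus had the same sign more often in NCI-H209, where the changes were larger. In Lu139, with 17 of 34 alike, the sign of a gene often depended on the probe set. The same limit holds for a call of lower in both lines. With 23 genes, the value rests on 1 probe set alone. A further 4 probe sets were paired with several symbols, a member among them, and were not used.

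The decrease was the larger in NCI-H209 for 26 of the 27 members lower in both lines, where this held for 71.9% of all genes lower in both. Across the 47 members the log2 differences of the lines had a Pearson correlation of 0.458 and a Spearman correlation of 0.447, beside 0.519 and 0.466 over 13306 genes. These correlations are across genes, which are not independent replicates and share the same 4 arrays, so they describe the arrays. The SD of the log2 difference over members was 0.246 in NCI-H209 and 0.118 in Lu139, beside 0.272 and 0.186 over the 13306 genes. The wider spread in NCI-H209 was thus shared by all genes.

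**Figure D4:**
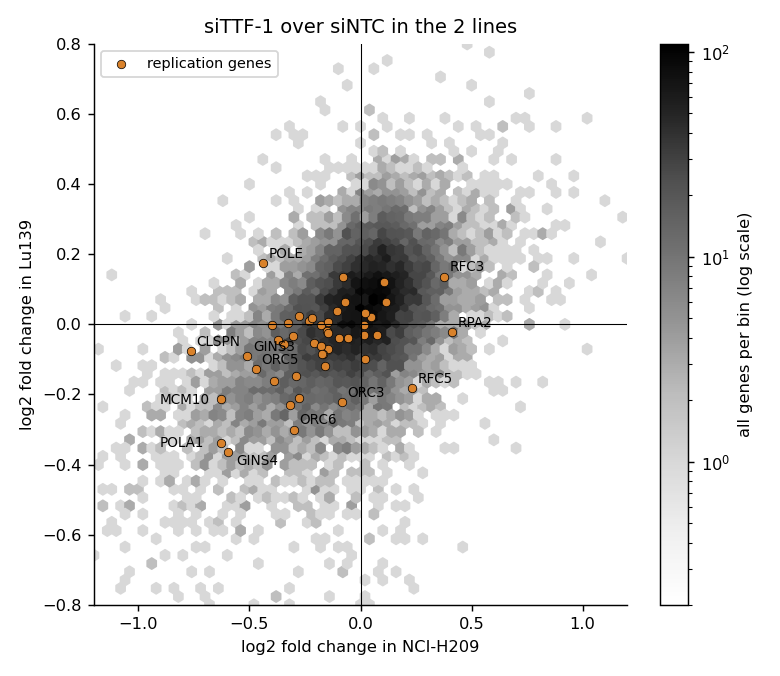
Log2 fold change in NCI-H209 (horizontal) against Lu139 (vertical), with all genes above the limit in both lines as grey hexagons (darker where more genes, log scale; 88 of 13306 genes lie outside the axes) and the 47 replication genes as orange points. The members lie mostly in the lower left part, with RPA2, RFC3 and RFC5 on the right and POLE at the upper left.

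Other replication genes outside the 47 were read from a further list of 29, all above the limit in both lines. In both lines 14 were lower (27.5% of all genes were) and 4 higher (37.7%), with medians of -0.08 and 0.00. Limma gave 6 lower (9.25% of all genes) and 1 higher (7.23%) at an unadjusted p under 0.05. At an adjusted p under 0.05 it gave 0. ATAD5, which unloads PCNA, had 346 and 223 in NCI-H209, against 295 and 223 in Lu139 (-0.60 and -0.38). DTL, the receptor of the ubiquitin ligase that destroys CDT1 on PCNA, had -0.60 and -0.17, and CHAF1B, of the chromatin assembly factor, had -0.43 and -0.17. All 3 were lower in both lines, and by more in NCI-H209.

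Regulators of G1/S, 24 of 25 with a value, were mostly higher, by small amounts at the median. The list mixes cyclins such as CCNE1 with inhibitors such as CDKN1A. Of the 21 above the limit in both lines, 14 were higher in both (37.7% of all genes were) and 5 lower (27.5%). The medians of the list were 0.07 for NCI-H209 and 0.06 for Lu139, beside 0.01 and 0.03 over all genes above the limit in both lines. At an unadjusted limma p under 0.05, 3 were lower (9.25% of all genes) and 3 higher (7.23%). There were 0 at an adjusted limma p under 0.05. CDKN1A, the inhibitor p21 of cyclin-dependent kinases, had 483 and 1580 in NCI-H209, against 329 and 681 in Lu139 (1.67 and 1.01, limma adjusted p = 0.0713). CCNE1, the G1/S cyclin, had 0.63 and 0.19. E2F1 had -0.08 and -0.17, and E2F8, an S-phase repressor of the family, had -0.67 and -0.16. Of 11 markers of mitosis, 8 were lower (27.5% of all genes were) and 1 was higher (37.7%) in both lines. Of the 11, 4 were lower at an unadjusted limma p under 0.05 (9.25% of all genes), with 0 at an adjusted p under 0.05. The medians of the 11 were -0.12 for NCI-H209 and -0.09 for Lu139. The summed intensity of the mitosis markers was 31680 and 27460 in NCI-H209, against 20120 and 17820 in Lu139. TOP2A, the brightest of them, weighs most in this sum, with 8316 and 6090 in NCI-H209, against 6774 and 5406 in Lu139. The summed intensity of the 47 members was 94990 and 85560 in NCI-H209, against 69200 and 66560 in Lu139. The mitosis markers with the largest mean change were CENPF (-0.48 and -0.31), TOP2A (-0.45 and -0.32) and MKI67 (-0.32 and -0.35). In bulk RNA, fewer cells in S phase and less of these transcripts per cell cannot be told apart.

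The level of the members also differed between the lines. Over the mean of both siRNAs, 35 of 47 were lower in Lu139, but so were most genes: the median line difference, Lu139 minus NCI-H209, was -0.36 over the members and -0.28 over all 14547 genes tested. In limma, 29 members were lower in Lu139 at an adjusted p under 0.05 (51.7% of all genes) and 8 were higher (18.7%). With quantile normalization over the 4 arrays the median of all genes was 0.04, and 18 members were lower and 16 higher, where 32.9% and 36.8% of all genes were. Under both scalings the same 18 were lower and the same 8 higher, and ORC6 was lower as deposited and higher after quantile normalization. The limma spread of this comparison is the one used for the siRNA effect: how far the siRNA difference disagrees between the lines. It holds no replicate arrays, and the labels describe no separate cultures.

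CLSPN, GINS1, RPA3, ORC3 and WDHD1 were furthest below in Lu139. CLSPN had a line difference of -1.47 (limma 95% interval -1.86 to -1.08), which is -1.19 relative to the median of all genes. GINS1 had intensities of 4022 and 3596 in NCI-H209, against 1506 and 1385 in Lu139, a difference of -1.39. RPA3 had -1.24, ORC3 -1.11 and WDHD1 -1.06. The dimmer probe sets of WDHD1 were also below in Lu139, but by less. They had 515 and 468 in NCI-H209 against 308 and 309 in Lu139, and 152 and 146 against 96.8 and 104. Each of these 5 genes was below on both Lu139 arrays, and each was also below after quantile normalization, from -1.03 for CLSPN to -0.61 for WDHD1. In the other direction, RPA2 had 1.17 (1.45 relative to the median of all genes). DBF4 had 1055 and 838 in NCI-H209, against 1649 and 1654 in Lu139, a difference of 0.80. ORC1 had 0.71. MCM7 had 2234 and 2014 in NCI-H209 against 3134 and 2983 in Lu139 (0.52), and POLD1 had 312 and 296 against 425 and 445 (0.49). Both arrays of Lu139 were above both arrays of NCI-H209 for each of these 5 genes.

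Subunits of one complex differed between the lines in opposite directions. Of the MCM2-7 ring, MCM2, MCM4 and MCM7 were higher in Lu139 (0.47, 0.35 and 0.52) and MCM3, MCM5 and MCM6 were lower (-0.76, -1.05 and -0.62), all 6 at a limma adjusted p under 0.05. After quantile normalization MCM6 had -0.17 at a limma adjusted p of 0.0505, and the other 5 kept their call. The value of MCM4 is that of its brightest probe set, and its dimmer probe sets did not all go that way. On the siNTC arrays they had 1788, 766, 562 and 70.1 in NCI-H209, against 1756, 751, 798 and 59.3 in Lu139. On the siTTF-1 arrays they had 1701, 735, 717 and 68.5, against 1892, 961, 645 and 63.4. Of RPA, RPA2 was higher in Lu139 and RPA1 (-0.87) and RPA3 lower. Among the ORC genes, ORC1 was higher, and ORC3 and ORC4 (-0.97) were lower under both scalings. The 4 fork protection genes were all lower as deposited, with TIMELESS at -0.30 as deposited and 0.15 after quantile normalization.

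**Figure D5:**
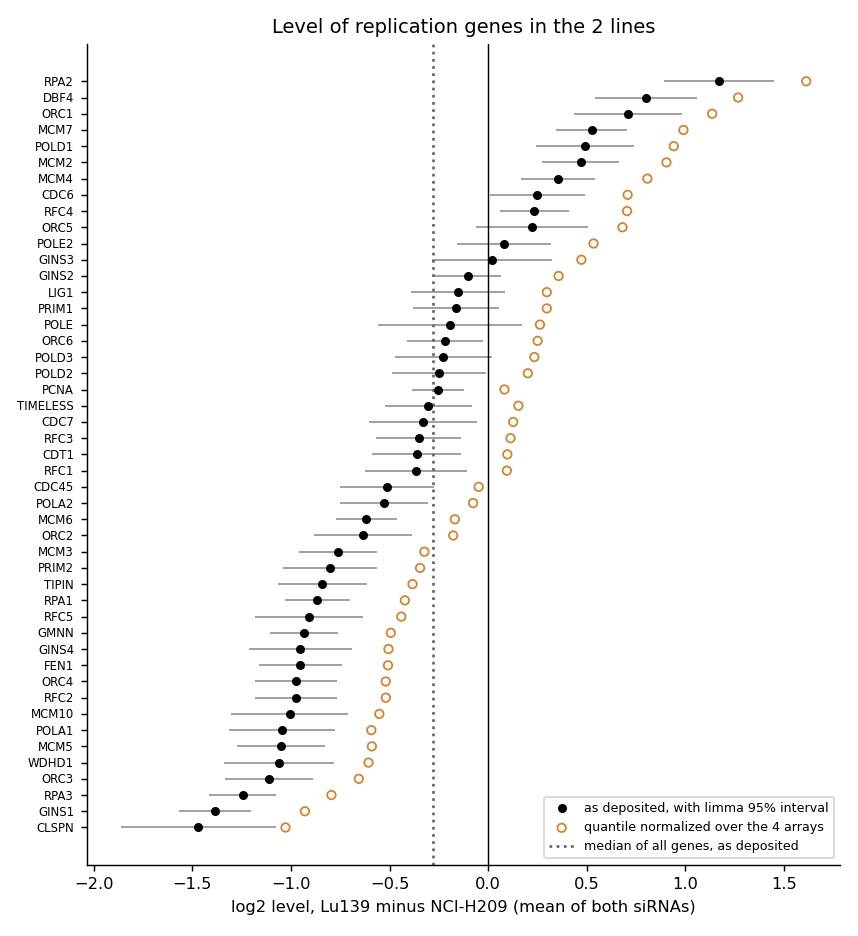
Difference in log2 level, Lu139 minus NCI-H209, of the 47 replication genes over both siRNAs (2 arrays per line), as deposited with the limma 95% interval (black) and after quantile normalization over the 4 arrays (orange rings); the dotted line is the median of all genes as deposited. RPA2 is at the top with 1.17 and CLSPN at the bottom with -1.47, and quantile normalization shifts all 47 genes to the right.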

How the data were processed

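Biotin-labelled cRNA was made from total RNA of each group and run on Affymetrix arrays, per the labels. The authors deposited linear intensities by probe set, and the submitters' processing notes name Affymetrix Expression Console. Summarisation, normalization, software version and build: none is given in the sources used here. Exactly equal intensities occurred on 2416 probe sets within NCI-H209 and 2206 within Lu139 but on 0 between lines, so the lines may have been scaled separately and the scaling of levels between lines is unknown.

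Of 54675 probe sets, 62 controls were left out. Of the rest, 41091 were paired with 1 symbol, 1801 with several and 11721 had no symbol. RefSeq (GRCh38.p14) supplied current symbols for 41037 matched probe sets. A gene took its brightest probe set. Values were log2(intensity + 18.7), the 25th percentile as pseudocount, and the expression limit was the 40th percentile of mean log2 (intensity 37.0). Differences within a line have no test. Across lines, limma 3.58.1 (R 4.3.3) fitted line and siRNA with a variance trend, 1 residual and 5.91 prior degrees of freedom, two-sided, with Benjamini-Hochberg adjustment over 14547 genes, and was tested on simulated data. The alternatives changed the pseudocount, the limit, the scaling, the choice of probe set, the line term and the trend. The members, lists and thresholds were chosen with earlier results of these data known. Values on every array were meant for the 20 members with the largest mean change, those past 1.5-fold, and the 5 with the largest line difference each way, and a few others were added. Of each other list the 3 genes with the largest mean change were named, with NKX2-1, CDKN1A, CCNE1 and E2F1. Figures were drawn with matplotlib 3.10.9.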

Additional observations from a re-analysis of the deposited data

How the results depend on the processing

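The medians of the members kept their sign under the 8 alternatives run for them, from -0.17 to -0.14 in NCI-H209 and from -0.04 to -0.02 in Lu139. The members lower in both lines numbered from 24 to 27. Of all genes, 27.5% were lower in both as deposited and 24.7% with quantile normalization over the 4 arrays. The 4 members past 1.5-fold lower in NCI-H209 became 2 with quantile normalization over the 4 arrays (MCM10 and CLSPN), 1 with quantile normalization within lines (CLSPN) and 2 when all probe sets were averaged (MCM10 and POLA1). With quantile normalization over the 4 arrays this was 4.26% of the members, near the 2.81% of all genes. For the other settings the share of all genes is not given here. The average of all probe sets gave 0 higher members at an unadjusted limma p under 0.05. The line is the block that pairs the arrays, and without this block limma gave 0 lower and 0 higher members at that level; this fit counts the difference between the lines as noise. The limma count of members at an adjusted p under 0.05 was 0 under all settings, with a lowest adjusted p of 0.0964 at the 60th percentile limit, while among all genes 93 were lower and 32 higher with quantile normalization over the 4 arrays, 33 and 7 with it within lines and 32 and 6 at the 60th percentile limit. Between the lines, quantile normalization over the 4 arrays gave 18 members lower and 16 higher in Lu139, where 32.9% and 36.8% of all genes were. No replicate could be left out, because each group has 1 array and leaving out a line leaves no residual degree of freedom.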
